A study of Mus musculus with 6 samples.

Results

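Sst and 9 other genes for neuropeptide precursors were followed in RNA-seq of mouse cerebellum, 10 of the 24537 genes listed in the files. The set was Sst, Npy, Penk, Cck, Tac1, Pdyn, Nts, Crh, Cartpt and Vip. Sst was selected on its FPKM values in earlier work on these data, in which its mean was higher with the Reln allele, so its values in the 2 groups are given as a description, with no test. The other 9 genes were chosen for what they encode, and all 10 were found by symbol.

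Each library came from the cerebellum of male mice 6 weeks after birth. In 3 libraries the mice carried 1 null allele of Reln (heterozygous), labelled with the strain Orl/BalbC, and in 3 they were wild type, labelled C57BL/6. The Reln product, reelin, is a large secreted protein that directs where migrating neurons settle. Since the strain label differs between the groups in every library, genotype and strain cannot be told apart. Whether each library is a different animal is not in the labels, so p-values refer to the spread between these libraries, which may be technical.

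A neuropeptide begins as a longer precursor protein that is cut by prohormone convertases, trimmed by carboxypeptidases, often amidated, and stored in dense-core vesicles. The released peptide acts mostly on G protein-coupled receptors, more slowly and over longer distances than glutamate or GABA, the main transmitters of the cerebellum. Several peptides found in cerebellar tissue sit in climbing or mossy fibres whose cell bodies lie in the brainstem. The mRNA of such a peptide is then made mainly outside the cerebellum.

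As a check of the labels, Reln stood at 0.531, 0.509 and 0.580 FPKM in heterozygous replicates 1, 2 and 3, against 0.834, 0.771 and 0.940 FPKM in wild-type replicates 1, 2 and 3. FPKM values scale the fragments of a gene by its exon length and by the fragments in the library, so levels of different genes can be set side by side. Approximate depths, read from the steps between low values, were 23100000 to 26900000 reads in heterozygous and 27100000 to 29000000 reads in wild-type libraries. The cerebellar granule cell gene Gabra6 (58.0 to 66.8 FPKM in heterozygous, 53.7 to 68.3 FPKM in wild-type libraries) and the Purkinje cell gene Pcp2 (162 to 167 FPKM in heterozygous, 122 to 175 FPKM in wild-type libraries) were high in all 6 libraries.

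Of the 10 genes, 4 were expressed above background and 6 were not. The 4 were Penk, Cck, Npy and Sst. Background was set from 30 genes of other organs (liver, pancreas, muscle, skin, testis and others), whose 95th percentile reached at most 0.316 FPKM in a library, and a gene counted as detected when it lay above that level in at least 5 libraries. Each of the 4 was above it in all 6 libraries and each of the other 6 genes in 0 libraries. That level came from wild-type replicate 1, and the percentile was 0.071 to 0.156 FPKM in the other libraries. Tac1, at 0.173 FPKM, was above the percentile of its own library in heterozygous replicates 2 (0.122 FPKM) and 3 (0.156 FPKM). It was below it in the others, so by that measure too it fell short of 5 libraries. A minimum mean of 0.1 or of 1 FPKM also gave 4 genes. Detection depended on the background used. For 1125 olfactory receptor genes the 95th percentile was 0 FPKM in every library. Tac1 and Nts were above 0 in 6 libraries, Pdyn in 5 and Crh, Cartpt and Vip in 4. The highest olfactory receptor gene had 8.45 to 11.3 FPKM in heterozygous and 8.84 to 28.3 FPKM in wild-type libraries. Penk lay above it in 4 libraries, and Cck, Npy and Sst in 0.

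Penk, which encodes the precursor of the enkephalins, opioid peptides, had the highest level. It stood at 18.8, 19.7 and 14.2 FPKM in heterozygous replicates 1, 2 and 3, against 17.7, 14.3 and 15.9 FPKM in wild-type replicates 1, 2 and 3. Its mean lay at the 97.8th percentile of all genes listed, and it made up 59.9% to 69.3% of the summed FPKM of the 10 genes in heterozygous and 65.4% to 69.4% in wild-type libraries. Penk (ENSMUSG00000045573, chromosome 4, 4133531 to 4138819, minus strand, mm10) overlaps 1 gene on the opposite strand, A830012C17Rik, and the strand setting of the authors' quantification is not given in the sources used here, so reads of this pair may not have been told apart.

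Cck, which encodes cholecystokinin, a gut hormone and brain peptide, came next. It had 5.62, 5.89 and 5.46 FPKM in heterozygous replicates 1, 2 and 3, against 6.50, 4.80 and 5.53 FPKM in wild-type replicates 1, 2 and 3. Cck lay below Penk and above Npy in every library. The ratio of Penk to Cck ranged from 2.60 to 3.35 in heterozygous and from 2.73 to 2.97 in wild-type libraries.

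Npy and Sst were close to each other, with means over the 6 libraries of 1.32 and 1.25 FPKM. Npy encodes neuropeptide Y, a peptide that stimulates feeding and dampens transmitter release, and Sst encodes somatostatin, which inhibits hormone release and marks a class of inhibitory interneurons in the cerebral cortex. Npy stood at 1.42, 1.11 and 1.78 FPKM in heterozygous replicates 1, 2 and 3, against 1.23, 0.936 and 1.43 FPKM in wild-type replicates 1, 2 and 3. The order of these neighbours was not fixed, since Sst was above Npy in heterozygous replicates 2 and 3 and wild-type replicate 1 and below it in the other 3 libraries.

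**Figure D1:**
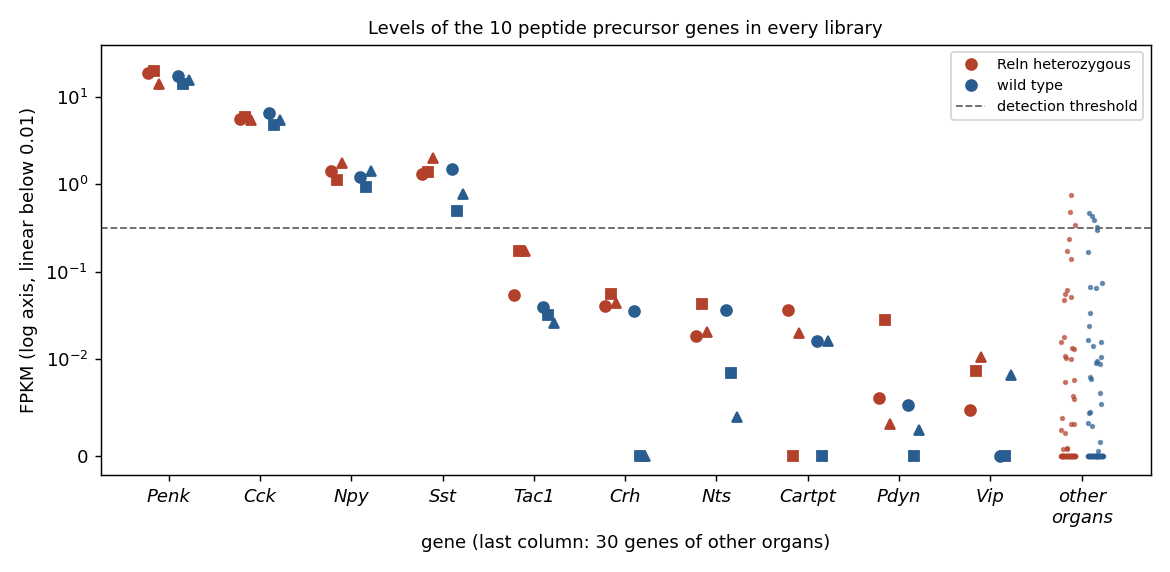
Level of each of the 10 genes in every library (FPKM, log axis, linear below 0.01), heterozygous in red and wild type in blue, with circles, squares and triangles for replicates 1, 2 and 3; the last column shows 30 genes of other organs and the dashed line the detection threshold of 0.316 FPKM. Penk, Cck, Npy and Sst lie above the line in all 6 libraries and the other 6 genes below it.

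The 6 genes under the threshold encode well-known peptides of other brain regions. Tac1, the precursor of substance P, had a mean of 0.0829 FPKM over the 6 libraries, and Crh, which encodes the corticotropin-releasing hormone that starts the stress response and is made by inferior olive neurons that send climbing fibres to the cerebellum, had 0.0291 FPKM. Means were 0.0217 FPKM for Nts (neurotensin), 0.0146 FPKM for Cartpt (the CART peptide), 0.00744 FPKM for Pdyn (the dynorphins, opioid peptides) and 0.00538 FPKM for Vip (vasoactive intestinal peptide). With the longest annotated transcript of each gene, Nts, Pdyn, Cartpt and Vip came to at most 1.8 approximate reads in any library, and many of their values were worth less than 1 whole read. Expression of these genes in some cells could not be told from background at this depth.

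Sst was the gene that prompted the question whether peptide genes moved together. It stood at 1.32, 1.40 and 2.00 FPKM in heterozygous replicates 1, 2 and 3, against 1.50, 0.501 and 0.774 FPKM in wild-type replicates 1, 2 and 3. The groups overlapped: wild-type replicate 1 was above heterozygous replicates 1 and 2, and the higher heterozygous mean came with low values in wild-type replicates 2 and 3. Mean levels were 1.58 ± 0.37 FPKM in heterozygous and 0.926 ± 0.519 FPKM in wild-type cerebellum (SD, n = 3 each), a ratio of 1.70. On the log2(FPKM + 1) scale, on which all differences below are given as heterozygous minus wild type, the difference was 0.44, with an SE of 0.25 from the spread of these 6 values alone. It was 0.28 without wild-type replicate 2 and 0.65 without wild-type replicate 1. In whole tissue, fewer cells of a type and less RNA per cell cannot be told apart.

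These values rest on few reads. Sst (ENSMUSG00000004366, chromosome 16, 23889573 to 23890958, minus strand, mm10) has a single annotated transcript of 721 bases in 2 exons. That length gives about 23.7, 27.2 and 33.4 reads in heterozygous replicates 1, 2 and 3, against 30.6, 9.8 and 16.2 reads in wild-type replicates 1, 2 and 3. Counting error alone was then 17.3% to 20.5% of the value in heterozygous and 18.1% to 32.0% in wild-type libraries, without the spread between libraries. The standard deviation between libraries was 23.7% of the mean in heterozygous and 56.0% in wild-type cerebellum. Of 1499 tested genes with a mean within 1.25-fold of that of Sst, the median was 10.4% in heterozygous and 13.4% in wild-type cerebellum, and 0.734% of them were as variable as Sst or more in wild type. Sst itself is among the 1499 and in that share. It was chosen on these values, so the share is a description. At a given FPKM a short transcript such as that of Sst gives fewer reads than a long one.

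**Figure D2:**
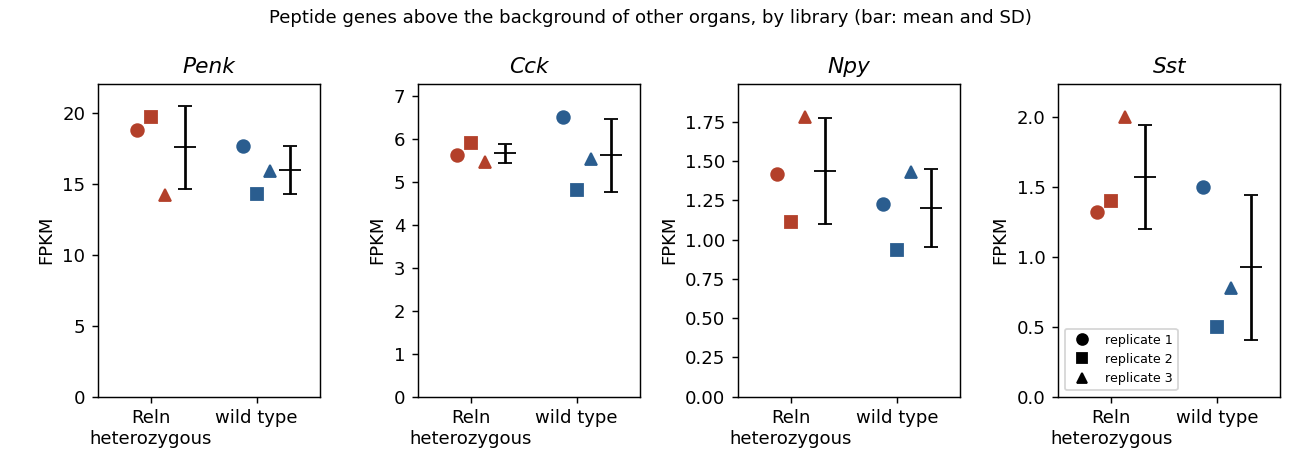
FPKM of Penk, Cck, Npy and Sst by library, Reln heterozygous left of wild type; symbols mark replicates 1 to 3 and the black bar the mean with SD (n = 3 per group). The groups overlap for all 4 genes, and Sst is lowest in wild-type replicates 2 and 3 (0.501 and 0.774 FPKM).

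For the other detected peptide genes, Npy, Penk and Cck, no difference between the groups passed the test. The test was limma, a linear model whose error estimate is shared across genes, applied to the 6358 genes that averaged 1 FPKM or more. At an adjusted p of 0.05 it called 5 of them (0.0786%), of which 1 was higher (0.0157%) and 4 were lower (0.0629%) in heterozygous libraries. The count was 16 to 62 when any 1 library other than wild-type replicate 2 was left out. None of the 3 peptide genes tested beside Sst passed, and none had an unadjusted p under 0.05. Npy averaged 1.44 ± 0.34 FPKM in heterozygous and 1.20 ± 0.25 FPKM in wild-type cerebellum (SD, n = 3 each), which differ by 0.14 (SE 0.10, limma adjusted p = 0.90). Penk averaged 17.6 ± 2.9 FPKM in heterozygous and 16.0 ± 1.7 FPKM in wild-type cerebellum (SD, n = 3 each), which differ by 0.12 (SE 0.16, limma adjusted p = 0.90). Cck averaged 5.66 ± 0.22 FPKM in heterozygous and 5.61 ± 0.85 FPKM in wild-type cerebellum (SD, n = 3 each), which differ by 0.018 (SE 0.14, limma adjusted p = 0.98). The Cck difference was -0.072 without wild-type replicate 2 and turned to -0.064 after median-of-ratios scaling, and that of Penk to -0.0054 after quantile normalization. Heterozygous and wild-type values overlapped for all 4 detected genes; in the tested range 4.81% of genes were higher and 0.739% lower in heterozygous libraries without overlap. All 3 genes lay near the median difference of 0.083 over the tested genes, of which 83.1% had the higher mean in the heterozygous group.

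Among the low genes, the heterozygous mean was the higher one for all 6, and for 60.3% of all genes with a mean above 0 and under 1 FPKM. For Tac1 and Crh the groups did not overlap, 2 of 6 genes, with the heterozygous libraries higher; among the 13153 genes of this low range that was so for 4.25%. None of the 6 was lower without overlap, against 1.91%. Tac1 had 0.0541, 0.173 and 0.173 FPKM in heterozygous replicates 1, 2 and 3, against 0.0392, 0.0322 and 0.0259 FPKM in wild-type replicates 1, 2 and 3 (two-sided exact permutation p = 0.1, the smallest that 3 against 3 libraries allow). By the longest of its 5 annotated transcripts, 1975 bases, this was 2.7, 9.2 and 7.9 reads in heterozygous and 2.2, 1.7 and 1.5 reads in wild-type replicates 1, 2 and 3. Heterozygous replicate 1 was thus within 1 read of the highest wild-type library.

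Crh had 0.0399, 0.0555 and 0.0438 FPKM in heterozygous replicates 1, 2 and 3, against 0.0353 FPKM in wild-type replicate 1 and 0 in wild-type replicates 2 and 3 (two-sided exact permutation p = 0.1). That is about 1.3, 2.0 and 1.3 reads in heterozygous and 1.3, 0.0 and 0.0 reads in wild-type replicates 1, 2 and 3, too few to set the groups apart. For Nts, Cartpt, Pdyn and Vip the groups overlapped, with two-sided exact permutation p-values of 0.5, 0.5, 0.2 and 0.2. Wild-type replicate 1 was the highest wild-type library for Nts and Crh, as for Sst, and so it was for Penk, Cck and Tac1.

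Library size and scaling were set beside the Sst values. Summed FPKM was 61886.9, 63812.5 and 64753.7 in heterozygous replicates 1, 2 and 3, against 62835.0, 55120.5 and 55070.4 in wild-type replicates 1, 2 and 3, so the libraries with least Sst also had the lowest sums. After division by median-of-ratios factors Sst stood at 1.33, 1.24 and 2.02 in heterozygous replicates 1, 2 and 3, against 1.38, 0.597 and 0.776 in wild-type replicates 1, 2 and 3, with a ratio of means of 1.67. Wild-type replicate 1 stayed above heterozygous replicates 1 and 2. On that scale Npy had a ratio of 1.14, Penk of 1.03 and Cck of 0.949.

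Ratios within a library do not depend on its scaling. Sst relative to Npy was 0.933, 1.27 and 1.13 in heterozygous replicates 1, 2 and 3, against 1.23, 0.535 and 0.542 in wild-type replicates 1, 2 and 3. Relative to Cck it was 0.235, 0.238 and 0.367 in heterozygous replicates 1, 2 and 3, against 0.232, 0.104 and 0.140 in wild-type replicates 1, 2 and 3. By the ratio to Cck the groups did not overlap, with heterozygous replicate 1 and wild-type replicate 1 nearly equal, and by the ratios to Npy, Penk and Gad1 they did. In each of the 4 ratios wild-type replicates 2 and 3 were the lowest of the 6 libraries. All 4 share the Sst values, which were lowest in those libraries, so they are not 4 separate results. Sst was chosen for its higher heterozygous mean, so the direction of these ratios and the gap by Cck are a description. How many other genes would separate when divided by Cck was not counted.

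**Figure D3:**
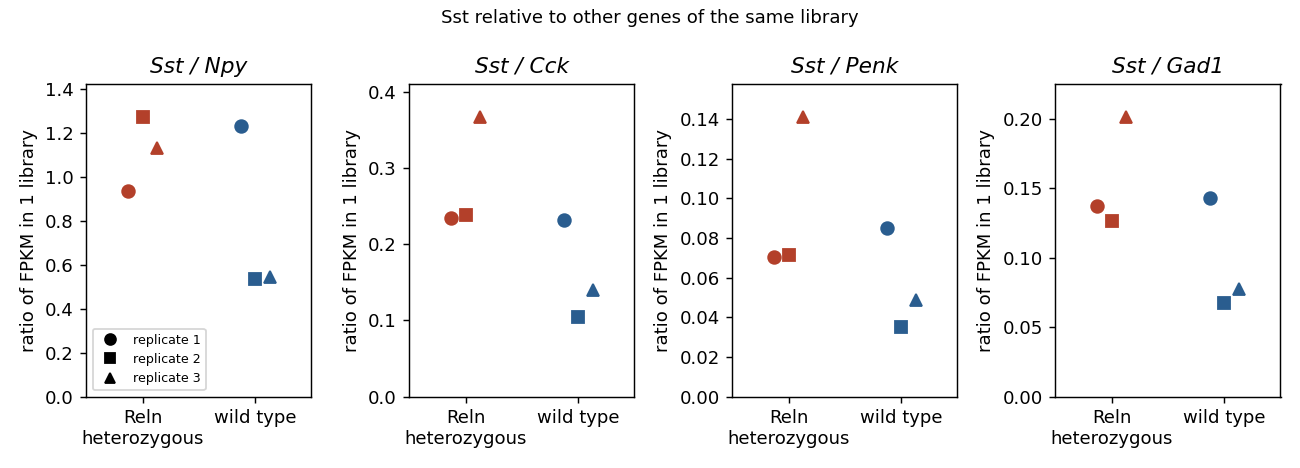
FPKM of Sst divided by that of Npy, Cck, Penk or Gad1 in the same library, Reln heterozygous left of wild type, with symbols for replicates 1 to 3. Wild-type replicates 2 and 3 are lowest in every panel, and wild-type replicate 1 lies beside the heterozygous libraries.

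Markers of the cells that could hold these transcripts were compared by library. The 11 markers of cerebellar inhibitory interneurons with a value in every library summed to 67.7, 73.4 and 69.0 FPKM in heterozygous replicates 1, 2 and 3, against 70.3, 55.0 and 64.2 FPKM in wild-type replicates 1, 2 and 3. Pvalb alone gave most of each sum, with 44.6 to 45.9 FPKM in heterozygous and 36.6 to 45.0 FPKM in wild-type libraries. Whether these markers came from interneurons alone was not tested. Gad1, which encodes the enzyme that makes GABA, had 9.67, 11.1 and 9.95 FPKM in heterozygous replicates 1, 2 and 3, against 10.5, 7.43 and 10.04 FPKM in wild-type replicates 1, 2 and 3. None of the 5 interneuron markers tested passed in limma or had an unadjusted p under 0.05. Wild-type replicate 2 was lowest for Gad1 as for Sst, while wild-type replicate 3 had as much Gad1 as the heterozygous libraries. The part of interneuron content in the Sst values was not tested.

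Forebrain tissue is rich in Sst, Npy, Tac1, Penk and Cck, and most of its defining transcription factors were at or near 0, with the exception of Neurod6 at 0.835 to 0.913 FPKM in heterozygous and 0.529 to 1.08 FPKM in wild-type libraries. Dlx2 and Dlx5 were listed at 0 in all 6 libraries and Dlx1 in 4, and Lhx6, a transcription factor of Sst interneurons in the cortex, had at most 0.0135 FPKM. The 11 forebrain markers in the files summed to 10.4, 11.6 and 10.4 FPKM in heterozygous replicates 1, 2 and 3, against 12.9, 8.11 and 10.5 FPKM in wild-type replicates 1, 2 and 3, most of it Ppp1r1b, which Purkinje cells also express. Brainstem and monoamine markers, 15 genes, summed to 0.376, 0.649 and 0.433 FPKM in heterozygous replicates 1, 2 and 3, against 0.407, 0.190 and 0.384 FPKM in wild-type replicates 1, 2 and 3. Th alone gave most of each sum, with 0.266 to 0.395 FPKM in heterozygous and 0.124 to 0.269 FPKM in wild-type libraries. Which cells the Th transcripts came from was not tested. The hindbrain gene Hoxa5 was at 0 in all 6 libraries. Of the 15 brainstem and monoamine markers, Dbh and Chat were higher without overlap in heterozygous libraries and 0 were lower. These are 2 of 15 genes, beside 4.25% of genes with a mean above 0 and under 1 FPKM. Dbh, the noradrenaline enzyme, had 0.0202 to 0.0480 FPKM in heterozygous and 0.00593 to 0.0199 FPKM in wild-type libraries. Chat reached at most 0.00192 FPKM. The part of brainstem RNA or fibres in the Tac1 and Crh values was not tested.

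The choroid plexus split the libraries in another way. Its 9 markers summed to 4.48, 165 and 8.02 FPKM in heterozygous replicates 1, 2 and 3, against 290, 1.34 and 160 FPKM in wild-type replicates 1, 2 and 3. Sst was high in heterozygous replicates 1 and 3, where these markers were low, and in wild-type replicate 1, where they were highest.

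The start of the Sst gene holds a cAMP response element, the site at which CREB was shown to raise transcription of the rat gene, and the windows below show which other members carry the same letters. Capitals mark the full element TGACGTCA or, where it is absent, the site TGACG on either strand (CGTCA when read on the other strand); all are from RefSeq, build GRCm38.p6, within 250 bases before a RefSeq start, 5′ to 3′ on the gene's strand. Sst lies at chr16:23890874-23890903 (minus), Cartpt at chr13:99900777-99900806 (minus), Vip at chr10:5639126-5639155 (plus), Cck at chr9:121495725-121495754 (minus), Tac1 at chr6:7555005-7555034 (plus) and Nts at chr10:102490568-102490597 (minus).
Sst: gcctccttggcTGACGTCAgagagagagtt
Cartpt: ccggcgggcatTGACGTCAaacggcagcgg
Vip: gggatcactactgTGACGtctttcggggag
Cck: tcctgctggactgCGTCAgcactgggtaaa
Tac1: ggctctacaggctCGTCAcgcctgagataa
Nts: aattagggaagatCGTCActttccatcaag

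Promoter sequence was at hand for 8 of the 10 genes, which had 9 RefSeq starts. The full element was found in 2 of the 8 (Sst and Cartpt), against 1.55% of 32851 mouse promoters of the same length, and TGACG on either strand, which every full element contains, in 6 of the 8, against 17.8%. The element was chosen because Sst was known to carry it, so Sst enters both counts by that choice. Members were counted per gene, with 9 starts for 8 genes, and the shares are per promoter. The counts therefore do not show that the element is more frequent among the members. In Sst the element begins 48 bases before the RefSeq start, in Cartpt 112 bases. The RefSeq start lies 114 bases inside the longer GENCODE gene model for Sst, 408 bases inside it for Cartpt and 182 bases inside it for Tac1, so these windows fall within the GENCODE genes. These matches are letters in a window and do not show binding. The genes that share the full element did not share a level, since Sst averaged 1.25 FPKM and Cartpt 0.0146 FPKM over the 6 libraries.

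Transcripts that follow cAMP and calcium signals were read beside Sst because of that element. Fos, the classic immediate early gene, stood at 1.50, 13.4 and 25.0 FPKM in heterozygous replicates 1, 2 and 3, against 21.9, 4.89 and 24.1 FPKM in wild-type replicates 1, 2 and 3. Both genes were highest in heterozygous replicate 3, and both were low in wild-type replicate 2, with 4.89 FPKM of Fos and 0.501 FPKM of Sst. Their order differed elsewhere. Wild-type replicate 3 had 24.1 FPKM of Fos and 0.774 FPKM of Sst, and heterozygous replicate 1 had 1.50 FPKM of Fos and 1.32 FPKM of Sst. The part of cAMP or calcium signals in the Sst values was not tested. None of the 10 immediate early genes tested passed in limma. An unadjusted limma p under 0.05 was found for 3 of them, beside 212 of all 6358 tested genes. Those 3 were Nr4a2 (difference -0.392, SE 0.175), Npas4 (-0.309, SE 0.141) and Dusp1 (-0.422, SE 0.207). All were lower in the heterozygous group, where Sst had the higher mean. Of the 10, 4 had the higher and 6 the lower mean in that group.

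In the related gene lists of the peptide system no gene passed the test. Of 47 further neuropeptide precursor genes, 5 were above background by the same threshold, Agt, Apln, Npb, Adcyap1 and Nppc, and 9 were at 0 in every library. Agt, the angiotensinogen gene, which astrocytes express, had 4.63 to 6.43 FPKM in heterozygous and 4.26 to 6.67 FPKM in wild-type libraries, with a difference of 0.099 (SE 0.14, limma adjusted p = 0.90). Apln, which encodes apelin, had a difference of 0.13 (SE 0.10, limma adjusted p = 0.90), and Npb, the neuropeptide B gene, had 0.510 to 0.910 FPKM in heterozygous and 0.504 to 0.621 FPKM in wild-type libraries. Neither of the 2 tested precursors passed. Of the 47, Oxt (oxytocin), Pmch (melanin-concentrating hormone) and Tac4 (a tachykinin) were higher and Ucn2 (urocortin 2) was lower without overlap in heterozygous libraries. These 3 and 1 of 47 genes stand beside the 4.25% higher and 1.91% lower among genes with a mean above 0 and under 1 FPKM. The 47 include the 9 genes at 0 and the 2 tested genes, which lie outside that range. Their like shares are therefore higher than counts out of 47 give. Oxt stood at 0.0899, 0.0417 and 0.0494 FPKM in heterozygous replicates 1, 2 and 3, against 0, 0 and 0.0395 FPKM in wild-type replicates 1, 2 and 3, so like Crh it was under the detection threshold in every library.

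The most abundant granins, cargo proteins of dense-core vesicles, exceeded every member in level. Chgb (chromogranin B) had 43.9 to 53.2 FPKM in heterozygous and 36.6 to 60.1 FPKM in wild-type libraries, with a difference of -0.0025 (SE 0.18). Scg2 (secretogranin II) followed with a mean of 33.5 FPKM and a difference of 0.071 (SE 0.18), and Pcsk1n, an inhibitor of a prohormone convertase, with 11.3 FPKM and a difference of -0.17 (SE 0.16). In the heterozygous group 4 of the 7 genes tested had the higher mean and 3 the lower, with a median difference of 0.058 against 0.083 for all tested genes, and none passed in limma or had an unadjusted p under 0.05. Vgf, the gene of a secreted neuronal polypeptide, had its highest value, 7.52 FPKM, in wild-type replicate 1, against at most 4.73 FPKM in the other 5 libraries.

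Among receptors of the member peptides, 4 of 27 genes in the files were above background and were tested. Ntsr2, a neurotensin receptor found on astrocytes, had 6.05 to 7.96 FPKM in heterozygous and 5.21 to 7.34 FPKM in wild-type libraries (difference 0.18, SE 0.14, limma adjusted p = 0.90). Sort1, which encodes sortilin, a sorting receptor that binds neurotensin, had a mean of 2.63 FPKM and a difference of 0.097 (SE 0.12). The somatostatin receptor gene Sstr3 had 1.83, 1.65 and 1.48 FPKM in heterozygous replicates 1, 2 and 3, against 1.24, 1.51 and 1.53 FPKM in wild-type replicates 1, 2 and 3 (difference 0.13, SE 0.10, limma adjusted p = 0.90). Wild-type replicate 1, the highest wild-type library for Sst, was the lowest of the 6 for Sstr3. Of the other somatostatin receptors, Sstr1 had a mean of 0.353 FPKM, Sstr4 of 0.287 FPKM, Sstr2 of 0.110 FPKM and Sstr5 of 0.00181 FPKM, with overlapping groups for each. Crhr1, the main receptor of corticotropin-releasing hormone, had a mean of 1.01 FPKM, against 0.0291 FPKM for Crh itself. Tacr1, the receptor of substance P, and Ntsr1 were higher without overlap in heterozygous libraries but reached at most 0.00111 and 0.00177 FPKM there. These are 2 of 27 genes, beside 4.25% of genes with a mean above 0 and under 1 FPKM. The 27 include the 4 tested genes and 1 at 0 in every library, which lie outside that range. The 4 tested receptors had a median difference of 0.11, and none passed in limma or had an unadjusted p under 0.05.

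Enzymes that make and break peptides showed the same lack of a called difference. Cpe, the carboxypeptidase that trims cleaved precursors, had 4.59 to 6.64 FPKM in heterozygous and 3.76 to 5.85 FPKM in wild-type libraries (difference 0.12, SE 0.14, limma adjusted p = 0.90). Ctsl, a lysosomal protease that can also cut precursors, had a mean of 12.1 FPKM (difference 0.16, SE 0.16), and Cpd, a carboxypeptidase of the trans-Golgi, 1.74 FPKM (difference -0.077, SE 0.11). The neuronal convertases were lower, with means of 0.458 FPKM for Pcsk2 and 0.282 FPKM for Pcsk1. The 4 processing enzymes tested were split, 2 with the higher and 2 with the lower mean in the heterozygous group, and had a median difference of 0.027. All 6 peptide-degrading enzymes tested had the higher mean there, with a median of 0.052, below that of all tested genes; Dpp7 (difference 0.14), Thop1 (0.079) and Lnpep (0.011) were the most abundant. None of these 10 enzymes passed in limma or had an unadjusted p under 0.05.

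**Figure D4:**
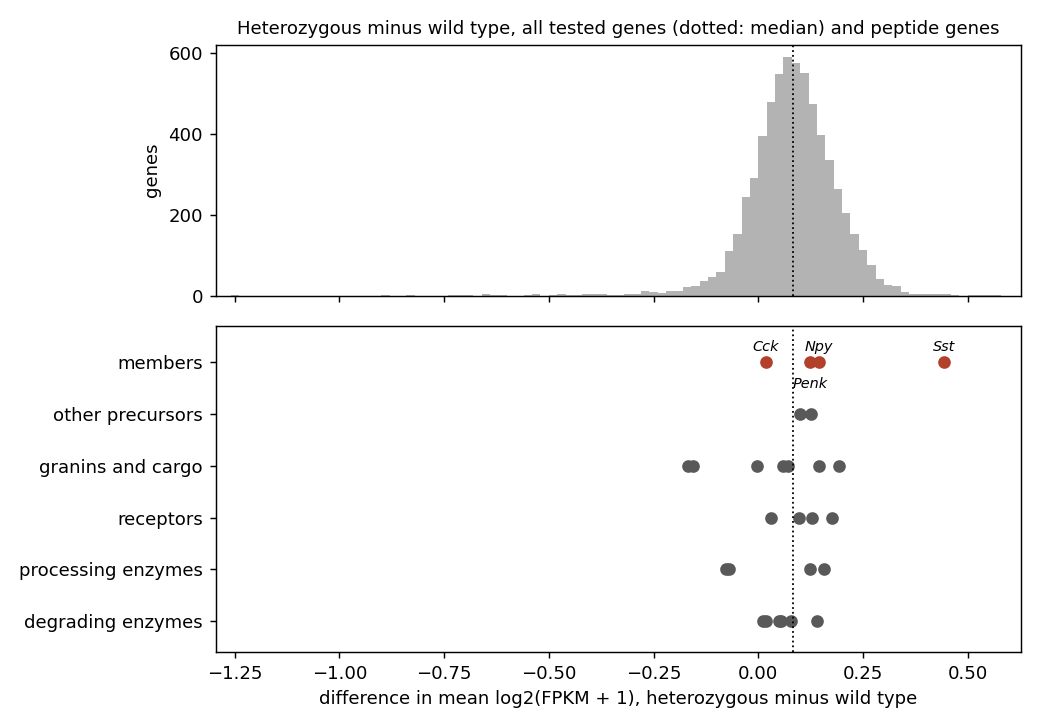
Difference of the group means of log2(FPKM + 1), as heterozygous minus wild type, for 6358 tested genes (upper panel, genes per bin) and for the tested peptide genes and related lists (lower panel, 1 point per gene); the dotted line is the median of all tested genes, 0.083. Sst, chosen for its value, lies at 0.44, while Npy, Penk and Cck lie between 0.018 and 0.14.

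Over the 6 libraries, the 5 genes closest in profile to Sst held no peptide precursor, but few could have entered. Only 3 other members and 2 further precursors were among the 6357 genes ranked. Sst was chosen for its values, so the ranking is a description and does not show whether peptide genes moved together. Likeness was measured as the mean absolute difference between log2(FPKM + 1) profiles centred on their mean. The 5 closest of 6357 genes were Creg1 (0.109), Cst3 (0.113), Abhd4 (0.114), Apoa1bp (0.117) and Ppp1r35 (0.132), against a median of 0.233 over all genes. Cst3, which encodes the protease inhibitor cystatin C, had 72.9, 82.7 and 83.2 FPKM in heterozygous replicates 1, 2 and 3, against 87.3, 46.8 and 64.5 FPKM in wild-type replicates 1, 2 and 3, with wild-type replicates 2 and 3 lowest as for Sst. Cck (0.216) and Npy (0.228) were about as far from Sst as the median gene, and Penk (0.257) was farther.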

How the data were processed

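RNA was measured in 6 cerebellum libraries (stranded total RNA kit, single-end reads). The authors deposited FPKM values, 1 library per file; per the labels' protocols, mitochondrial and ribosomal sequences were filtered out, reads were aligned to mm10 with TopHat2 and Bowtie 1 and quantified with Cufflinks. The annotation release was not given in the sources used here, nor was the strand setting.

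Groups came from the sample titles. In heterozygous replicate 2, 40 values read as dates and those genes were left out. Genes that averaged 1 FPKM or more were tested on log2(FPKM + 1) with limma 3.58.1 (R 4.3.3, intensity trend, Benjamini-Hochberg over all tested genes, adjusted p under 0.05), which rests mostly on the spread of other genes (54.4 prior against 4 residual degrees of freedom). For members below 1 FPKM, group means of FPKM were compared by exact permutation (two-sided). Tested on simulated data of this comparison (6358 genes, 10 runs, 200 changed), 36.9% of changes of 1.5-fold were found, 83.7% of those of 2-fold and 98.3% of those of 4-fold, beside 6.8 false calls per run. The simulated noise was drawn separately for each gene. Shifts shared by many genes of a library were not simulated, so these rates may not hold for the real libraries. Approximate reads are FPKM times GENCODE M21 transcript length times depth, with no correction for effective length, so intervals cover counting error only; 97.1% of genes matched that annotation. Python 3.11.15, pandas 2.3.3, numpy 2.4.6 and matplotlib 3.10.9 were used.

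Members, gene lists and tests were chosen with earlier results of these data known. Named were all 10 members, the 3 most abundant genes of each related list, and the 5 genes closest to Sst; Vgf, Oxt, Pmch, Tac4, Ucn2, Tacr1, Ntsr1, the other somatostatin receptors, Crhr1, Pcsk1, Pcsk2 and single markers were named after their values were seen. Alternatives changed the pseudocount, minimum, scaling, block and libraries.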

Additional observations from a re-analysis of the deposited data

How the results depend on the processing

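None of Npy, Penk and Cck passed in limma under any alternative. The Sst difference, for which Sst was chosen, was 0.28 to 0.65 with 1 library left out, 0.33 without wild-type replicate 2 and heterozygous replicate 2, 0.41 after median-of-ratios and 0.42 after quantile scaling, and 0.81 with a pseudocount of 0.1. Differences near 0 changed sign: Cck to -0.064 after median-of-ratios scaling, -0.085 after quantile normalization, -0.097 without both libraries numbered 2, and -0.072 to 0.11 with 1 library left out; Penk to -0.0054 after quantile normalization and -0.035 without both libraries numbered 2 (0.039 to 0.26 with 1 left out); Nts to -0.0013 without both (0.0042 to 0.029 with 1 left out); and Cartpt from -0.001 to 0.025 with 1 library left out. The cause was not tested.

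Over all genes, limma called 5; the count was 0 with a minimum of 0.5 FPKM, 1 with no minimum, 0 after median-of-ratios scaling, 0 after quantile normalization, 5 to 62 with 1 library left out (19, 18 and 42 without heterozygous replicates 1, 2 and 3, against 62, 5 and 16 without wild-type replicates 1, 2 and 3) and 67 without both libraries numbered 2. In that last setting 1 gene of the related lists passed, Vgf (-0.53, SE 0.13, limma adjusted p = 0.012). Same-numbered libraries of the groups had correlations of deviations of -0.281, -0.517 and 0.140, so the numbers were not taken to pair them. With the replicate number as a block 13 genes passed, none of them Npy, Penk, Cck or a gene of the related lists. Sst at 9.8 to 33.4 reads and Crh at 0.0 to 2.0 reads per library show what depth limits here.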
